A study of Mus musculus with 6 samples.

Results

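Cartilage of the otic capsule, the shell of cartilage and bone around the cochlea, was read through 10 genes, namely 7 that encode non-collagen proteins of cartilage (Acan, Matn1, Matn3, Matn4, Comp, Hapln1 and Cnmd) and the 3 transcription factor genes Sox9, Sox5 and Sox6. All 17 probe sets that the platform annotation assigns to these genes alone were taken, of 22626 probe sets tested, and they make 10 of 12393 genes. The genes were listed by name, but the list was drawn up with earlier results of these data known. Samples were RNA pools from mouse embryos of embryonic day 18.5 on a C57BL/6J background, either wild type (Igf-1+/+) or null for Igf1 (Igf-1-/-), the gene of insulin-like growth factor 1, and both kinds came from matings of heterozygous parents. There were 3 pools of each genotype, each made of 4 cochleae with the otic capsule and without vestibular tissue, and each was hybridised to 1 single-colour Affymetrix array. A pool of 4 cochleae hides the spread between embryos.

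Cartilage owes its stiffness to aggrecan, a very large proteoglycan that binds hyaluronan and holds water, and to a network of collagen fibrils that keeps it in place. Link protein fastens aggrecan to hyaluronan, while matrilins and cartilage oligomeric matrix protein bridge fibrils and proteoglycans. SOX9 starts the cartilage programme, and SOX5 and SOX6 act beside it on the enhancers of matrix genes. The otic capsule forms as cartilage and is later largely replaced by bone.

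Levels are log2 signals after quantile normalization of the arrays, differences are null minus wild type on the log2 scale, and p-values are from limma unless another test is named. In these whole cochleae, fewer cartilage cells and less RNA per cell cannot be told apart. The number of arrays limits every value. Values of the 3 pools of a genotype are given in the order of their replicate numbers. Array medians of the deposited values were 6.09 to 6.30 in wild type and 5.61 to 6.36 in null pools, with null replicate 1 the lowest. Igf1 signal was lower in every null pool than in every wild type pool at its 3 probe sets, with 50.2% to 72.9% of the wild type level. That signal was 6.79 or more in every null pool, above a reference level of 4.60 from genes of other organs, and the labels do not say which stretch of Igf1 was disrupted, so whether these probe sets cover it is not known here. The sample titles also hold a number of unstated meaning, which is 14 in replicate 1 and 16 in the other two pools of a genotype.

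The labelled tissue carried its cartilage markers. All 7 measured cartilage collagen genes, such as Col2a1, the main fibrillar collagen of cartilage (mean level 13.32 ± 0.15 SD, n = 3, in wild type), were brighter than the reference level of 4.60, the 95th percentile over 27 genes of testis, oocyte, retina, mammary gland, liver, kidney, pancreas or stomach. The brightest probe set of each of the 10 genes was above it too, and 14 of the 17 probe sets were. The other 3, the dimmer probe set of Sox6 and the dimmest pair for Sox5, were not.

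No probe set of the 10 genes passed an adjusted p of 0.05, where 0 of 22626 (0%) passed over the whole table. At the brightest probe set of each gene, signal averaged lower in the null pools for 9 of the 10 genes, with Sox5 the exception, and the median difference was -0.27. Over all genes 48.7% were lower by sign, and the median difference was 0.0062. The 7 matrix genes were all lower, by a median of -0.35 and from -0.93 to -0.23, and the SOX genes had differences of -0.21 (Sox9), -0.15 (Sox6) and 0.12 (Sox5). Without null replicate 1 the median of the 10 genes was -0.12, and without null replicate 3 it was -0.44. It was -0.38 without wild type replicate 1 and -0.20 without wild type replicate 3.

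**Figure D1:**
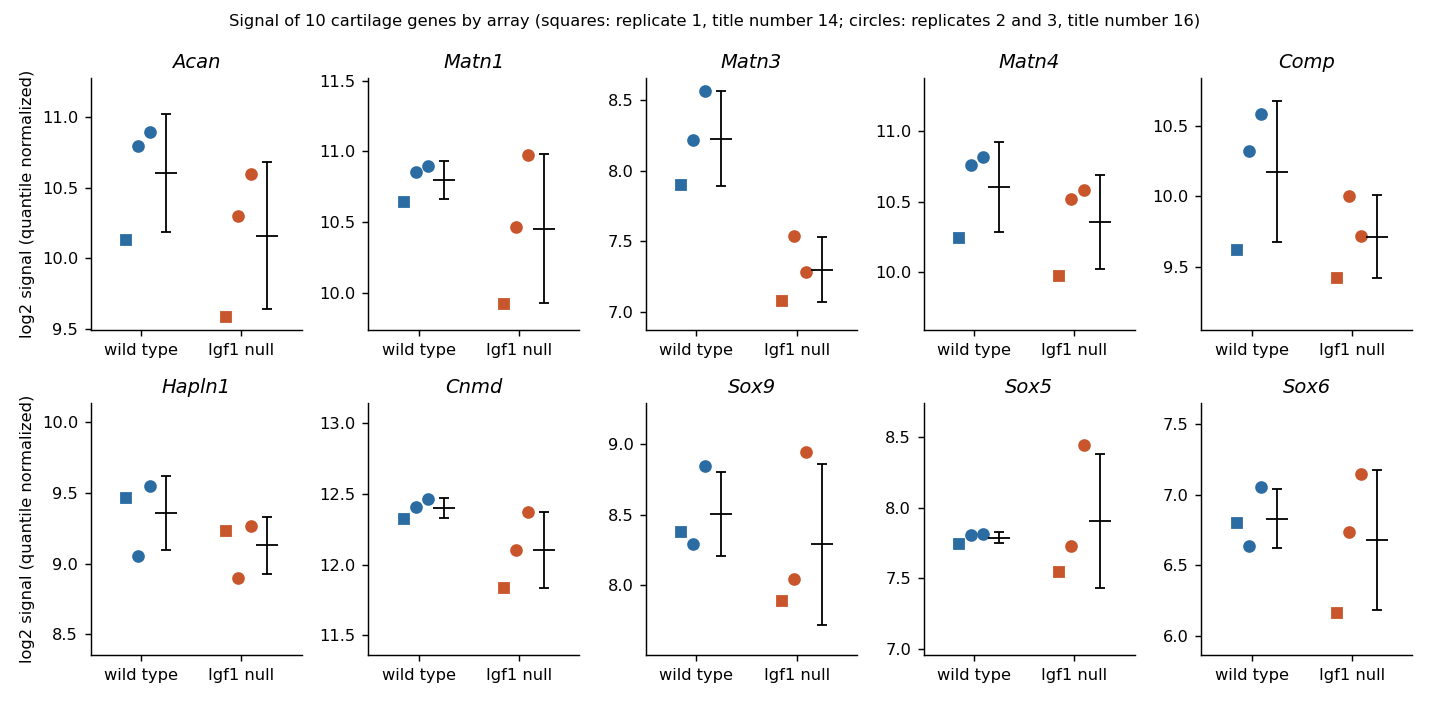
Quantile-normalized log2 signal (y axis, the same number of log2 units in every panel) of the brightest probe set of 10 genes in 3 wild type and 3 Igf1 null arrays. Points are arrays, squares mark title number 14 and circles 16, and bars are the mean and SD; in the Matn3 panel the 2 genotypes do not overlap, in the other panels they do.

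Among the matrilins, Matn3 had the largest difference between null and wild type pools. Matrilins are adaptor proteins that join collagen fibrils, aggrecan and cartilage oligomeric matrix protein, and 3 of the family, Matn1, Matn3 and Matn4, are among the 10 genes. Because Matn3 gave the largest difference of the 7 matrix genes and the other two are its close relatives, the 250 bases before their start sites are shown, from RefSeq on GRCm38.p6 as the promoter table gives them, 5′ to 3′ on the strand of the gene. The capitals mark GGGCGG, a GC box, or its reverse complement CCGCCC.

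Matn3, chr12:8947679-8947928, plus strand: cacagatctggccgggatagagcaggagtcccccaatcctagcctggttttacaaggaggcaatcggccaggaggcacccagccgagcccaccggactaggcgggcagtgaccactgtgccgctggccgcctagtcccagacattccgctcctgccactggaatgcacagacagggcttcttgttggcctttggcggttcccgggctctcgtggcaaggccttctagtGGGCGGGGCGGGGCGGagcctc

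Matn1, chr4:130944135-130944384, plus strand: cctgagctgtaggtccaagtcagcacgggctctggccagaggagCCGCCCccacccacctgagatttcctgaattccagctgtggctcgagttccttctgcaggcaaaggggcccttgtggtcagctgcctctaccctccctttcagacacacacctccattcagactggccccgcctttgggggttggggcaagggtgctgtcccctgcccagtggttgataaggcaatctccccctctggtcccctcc

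Matn4, chr2:164404819-164405068, minus strand: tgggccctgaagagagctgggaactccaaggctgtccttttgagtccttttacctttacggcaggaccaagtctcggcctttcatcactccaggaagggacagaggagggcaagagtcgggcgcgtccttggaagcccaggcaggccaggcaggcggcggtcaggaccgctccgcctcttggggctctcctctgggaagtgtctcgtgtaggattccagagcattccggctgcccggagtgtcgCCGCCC

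In the Matn3 window the 3 copies of the GC box start at -22, -17 and -12 relative to the start site, and neighbouring copies share their end base. The Matn1 window holds 1 copy at -206 and that of Matn4 1 copy at -6, both on the opposite strand. A second Matn4 window in the table, not shown, holds none. Across 32851 promoter windows of the same length, 32.7% hold a GC box on either strand, as do 5 of the 14 windows in the table, which cover 8 of the 10 genes, and a match here describes the letters only.

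Matn3, expressed mainly in developing cartilage, read 7.90, 8.22 and 8.56 in wild type and 7.08, 7.54 and 7.28 in null pools. Every null pool lay below every wild type pool. The difference was -0.93 ± 0.22 (SE), 52.6% of the wild type level, with a 95% interval from -1.49 to -0.37, an unadjusted p of 0.0077 and an adjusted p of 0.887. Matn3 was the 1 gene of the 10, and its probe set the 1 of 17, with every null array below every wild type array, where 5.3% of all probe sets and 4.98% of all genes were so separated. It was also the 1 probe set of 17 with an unadjusted p under 0.05, against 4.99% of all probe sets, or 2.58% counting those lower in the null pools. No probe set of the 10 genes had every null array above every wild type array, as 5.53% of probe sets and 5.62% of genes did. An exact permutation test (two-sided) returned p = 0.1, and 3 arrays against 3 can go no lower. Within title number 14 the Matn3 difference was -0.82 and within title number 16 it was -0.98. Leaving out single arrays, it ran from -1.10 to -0.76.

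Matn1, the matrilin first described as cartilage matrix protein, read 10.64, 10.86 and 10.90 in wild type and 9.92, 10.47 and 10.97 in null pools. Null replicate 3 was the highest of all 6 arrays and null replicate 1 the lowest, so the genotypes overlapped. The difference was -0.35 ± 0.29 (SE; adjusted p = 0.981), and -0.08 without null replicate 1. Matn4, a matrilin of cartilage and of many other tissues, read 10.24, 10.76 and 10.82 in wild type and 9.98, 10.52 and 10.58 in null pools. In both genotypes replicate 1 was the lowest of the 3, and the difference was -0.25 ± 0.25 (SE; adjusted p = 0.981). It was -0.06 without null replicate 1.

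Matn3 was also set against the other matrilins on the same array, from the quantile-normalized values. The log2 ratio of Matn3 to Matn4 was -2.34, -2.54 and -2.25 in wild type and -2.90, -2.98 and -3.30 in null pools, without overlap. The ratio of Matn3 to Matn1 shifted by -0.58 and that to Matn4 by -0.68, and both were lower in every null pool (exact permutation p = 0.1 for each, two-sided, the smallest possible, and 0.2 adjusted over the 8 gene pairs compared). The ratio of Matn1 to Matn4 shifted by -0.10, with overlap (exact permutation p = 0.5, 0.571 adjusted). Matn3 was known from earlier results to have the largest difference of the 10, so these ratios describe it and do not test it independently.

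Aggrecan and link protein are partners in the same aggregate, and neither gene separated the genotypes. Acan, which encodes aggrecan, read 10.13, 10.80 and 10.89 in wild type and 9.58, 10.30 and 10.60 in null pools. Replicate 1 was the lowest in each genotype, by more than the gap between the genotype means. The difference was -0.44 ± 0.35 (SE), 73.5% of the wild type level, with a 95% interval from -1.32 to 0.43 and an adjusted p of 0.981. The interval includes no difference as well as a level in the null pools of 0.4 of wild type. Without null replicate 1 the Acan difference was -0.15. With the title number as a block, a fit in which replicate 1 pools are compared with each other, it was -0.44 ± 0.14 (SE; unadjusted p = 0.0275, adjusted p = 0.855).

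Hapln1, which encodes the link protein, had 3 probe sets that gave different signs. The brightest read 9.47, 9.06 and 9.55 in wild type and 9.23, 8.90 and 9.27 in null pools, a difference of -0.23 ± 0.19 (SE; adjusted p = 0.981). The next read 9.01, 8.95 and 9.31 against 8.86, 9.13 and 9.09, a difference of -0.06 ± 0.15 (SE). The third read 8.92, 8.57 and 8.99 against 8.60, 8.83 and 9.12, a difference of 0.02 ± 0.19 (SE). The genotypes overlapped at each of them. Within an array, the brightest minus the third probe set was 0.55, 0.49 and 0.56 in wild type and 0.62, 0.07 and 0.15 in null pools. Null replicates 2 and 3 therefore carried less signal at the brightest probe set relative to the third than any other array, while null replicate 1 did not (exact permutation p = 0.4, two-sided). Of the 10 genes Hapln1 was the 1 whose lowest array was null replicate 2.

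Comp encodes cartilage oligomeric matrix protein, a pentameric thrombospondin that binds collagen fibrils. It read 9.62, 10.32 and 10.58 in wild type and 9.42, 10.004 and 9.72 in null pools. Wild type replicate 1 fell within the range of the null pools, so the genotypes overlapped. The difference was -0.46 ± 0.30 (SE; adjusted p = 0.980), -0.20 within title number 14 and -0.59 within title number 16. Without wild type replicate 1 it was -0.74 (unadjusted p = 0.0294, adjusted p = 0.900), without wild type replicate 3 it was -0.25 and without null replicate 1 it was -0.31.

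Cnmd encodes chondromodulin, a membrane glycoprotein of chondrocytes whose released domain restrains vessel growth, and it was the gene of the 10 whose probe set ranked highest on the arrays, at the 99.4 percentile of probe set levels. It read 12.32, 12.41 and 12.46 in wild type and 11.84, 12.10 and 12.37 in null pools. Null replicate 3 lay among the wild type pools and the other two null pools lay below them. The difference was -0.29 ± 0.17 (SE; adjusted p = 0.980), with a 95% interval from -0.72 to 0.13. The Cnmd difference was -0.16 without null replicate 1 and -0.11 with median centring in place of quantile normalization. Wild type pools spread by 0.07 (SD, n = 3) and null pools by 0.27 (SD, n = 3).

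**Figure D2:**
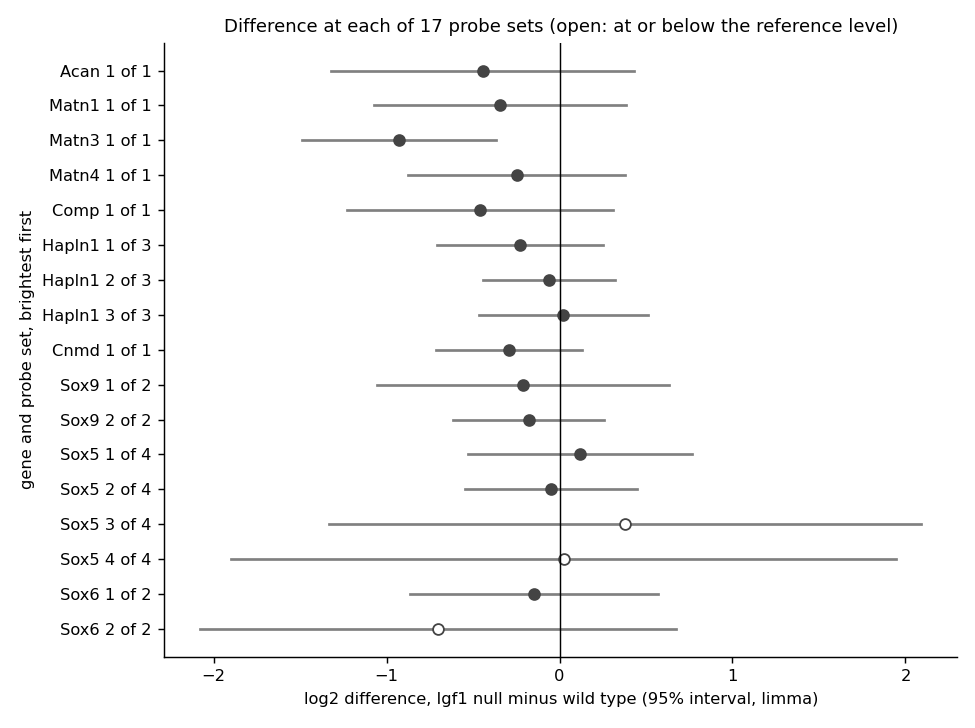
Log2 difference, Igf1 null minus wild type (x axis), with its 95% interval from limma for the 17 probe sets of the 10 genes (y axis, brightest first within a gene; open circles, mean level at or below the reference level of 4.60). The interval of Matn3, from -1.49 to -0.37, is the 1 that leaves out 0, and the 3 dim probe sets have the widest intervals.

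The SOX genes followed another order of arrays than Matn3, with null replicate 3 at or near the top. Sox9, the regulator that cartilage formation requires and that is also active in otic epithelium and glia, read 8.38, 8.29 and 8.84 in wild type and 7.89, 8.04 and 8.94 in null pools at its brighter probe set. At the other it read 7.73, 7.72 and 7.85 in wild type and 7.29, 7.62 and 7.85 in null pools. At both probe sets null replicate 3 stood with the highest wild type pool, and null replicates 1 and 2 stood below all wild type pools. The differences were -0.21 ± 0.33 and -0.18 ± 0.17 (SE; adjusted p = 0.987 and 0.981). The pair agreed closely, as their within-array log2 ratio shifted by -0.04 between genotypes (exact permutation p = 0.9, two-sided). Without null replicate 1 the Sox9 differences were -0.01 and -0.03.

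Sox5 and Sox6 encode related SOX proteins without an activation domain of their own, which pair with each other on DNA. Sox5 at its brightest probe set read 7.74, 7.81 and 7.82 in wild type and 7.55, 7.73 and 8.45 in null pools. The wild type pools spread by 0.04 (SD, n = 3), and the null pools lay on both sides of them, with a difference of 0.12 ± 0.26 (SE; adjusted p = 0.995). At the next probe set Sox5 read 7.44, 7.07 and 7.27 against 7.15, 6.95 and 7.52, a difference of -0.05 ± 0.20 (SE). The remaining pair of Sox5 probe sets, below the reference level, read 2.61, 2.90 and 4.96 against 4.31, 3.52 and 3.78 and read 3.33, 3.60 and 3.00 against 1.92, 3.21 and 4.87. Their Sox5 differences were 0.38 ± 0.68 and 0.02 ± 0.76 (SE), with standard errors too large to place the sign. Of 6 pairings among the Sox5 probe sets the within-array ratios gave exact permutation p-values from 0.4 to 1.

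Sox6 read 6.80, 6.64 and 7.05 in wild type and 6.16, 6.74 and 7.15 in null pools at its brighter probe set. Null replicate 1 was the lowest array and null replicate 3 the highest. The difference was -0.15 ± 0.28 (SE; adjusted p = 0.992), and it turned to 0.11 without null replicate 1. At the dim probe set, Sox6 read 4.69, 3.99 and 4.55 against 2.60, 3.96 and 4.56, so that null replicate 1 alone stood apart, and the difference was -0.70 ± 0.54 (SE). The within-array ratio of the brighter to the dim Sox6 probe set was 2.11, 2.65 and 2.505 in wild type and 3.57, 2.78 and 2.59 in null pools, a shift of 0.55 (exact permutation p = 0.2, two-sided). It was higher in every null pool with the values as deposited or median-centred, by 0.70 (p = 0.1, the smallest possible, by the exact permutation test), and shifted by 0.10 (exact permutation p = 0.5) with an offset of 32 added to linear signal.

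SOX proteins of this trio bind AACAAT and AACAAAG type sites, and SOX5 and SOX6 bind as dimers to paired sites. Both motifs and their reverse complements were searched in the 250 bases before each start site. AACAAT was found in 1 of the 14 windows, against 9.42% of all 32851 windows, and AACAAAG in 3 of 14, against 5.03%. All 4 of those windows belong to Sox6, which has 6 windows in the table. The motifs do not overlap each other there. The Sox6 window with AACAAT is shown because it holds the motif on both strands, with capitals on the copies at -236 and, as the reverse complement ATTGTT, at -225 relative to that start site.

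Sox6, chr7:115824711-115824960, minus strand: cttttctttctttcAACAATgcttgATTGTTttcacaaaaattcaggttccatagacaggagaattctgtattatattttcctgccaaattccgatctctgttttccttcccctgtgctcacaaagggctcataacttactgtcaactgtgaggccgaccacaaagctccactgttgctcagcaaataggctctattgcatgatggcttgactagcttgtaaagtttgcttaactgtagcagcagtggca

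These letters are not in the windows shown for Matn1, Matn3 and Matn4, which says nothing of sites farther away, and the arrays do not tell which Sox6 start site was in use.

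Null replicate 1 was the lowest of the 6 arrays for 9 of the 10 genes and for 13 of the 17 probe sets, where it was the lowest for 20.3% of all genes. The median departure of the 10 genes from their wild type means was -0.65, -0.30 and -0.02 over null pools, and over wild type pools it was -0.14, 0.02 and 0.22. All 10 genes lay below their wild type mean in null replicates 1 and 2, and 6 of 10 did in null replicate 3. In null replicate 3, Matn3 departed by more than any other of the 10 genes while Sox9, Sox5, Sox6 and Matn1 lay above their wild type mean.

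**Figure D3:**
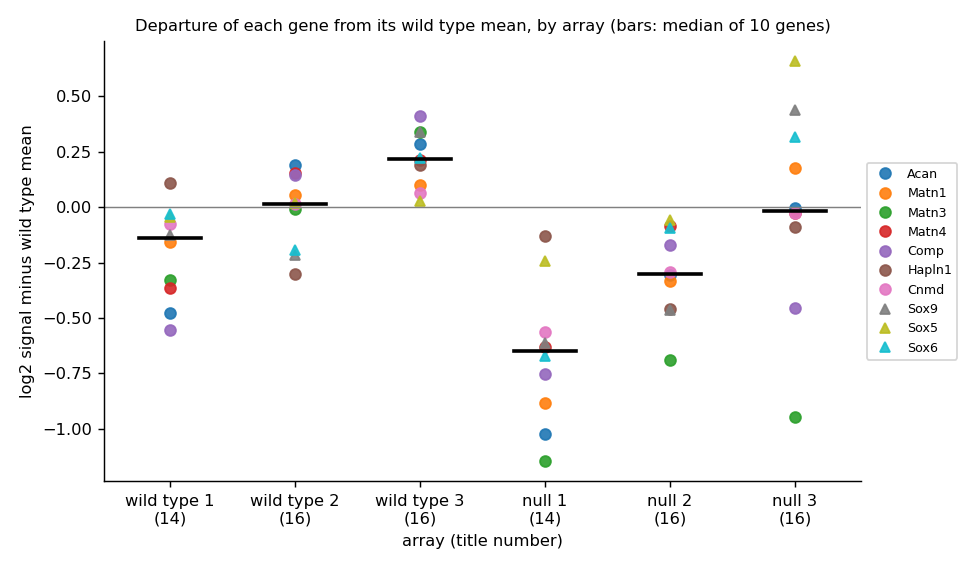
Log2 signal of each of the 10 genes minus its wild type mean (y axis) on each array (x axis, with the title number in brackets; circles, matrix genes; triangles, SOX genes; black bars, median of the 10 genes). The median is -0.65 in null replicate 1, -0.30 in null replicate 2 and -0.02 in null replicate 3, and Matn3 is the lowest gene in each of the null arrays.

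The title number moved with the matrix genes in both genotypes. Replicate 1, of title number 14, was the lowest wild type pool for 6 of the 7 matrix genes and the lowest null pool for 6 of 7, the same 6 genes in each case, where replicate 1 was the lowest in both genotypes for 14.1% of all genes. Between title numbers the median of the 7 genes differed by -0.50 in wild type (14 minus 16) and by -0.44 in null pools. The difference between genotypes was lower within each title number for all 7 matrix genes, with medians of -0.49 within title number 14 (1 pool of each genotype) and -0.24 within title number 16 (2 pools of each). For the SOX genes the medians were -0.49 and 0.10. Both title numbers gave a negative difference for 8 of the 10 genes, where 3085 of 12393 genes did.

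The genes nearest to Acan over the 6 arrays were all collagens of cartilage. Nearness was the root mean square difference of log2 signals, each gene centred on its own mean, among 6186 other genes above the median level. The first 3 were Col9a2 (0.105), Col11a2 (0.124) and Col9a3 (0.125), where Acan itself varied by 0.445 around its mean. Col9a2 and Col9a3 encode chains of type IX collagen, which decorates the fibrils, and Col11a2 a chain of type XI collagen, found inside them. For Sox9 the nearest genes were Fbn2, a microfibril gene (0.104), Iqgap2, a scaffold protein gene (0.133), and Malat1, a nuclear long non-coding RNA (0.148), where Sox9 varied by 0.385. Their differences between genotypes were -0.07, -0.01 and 0.08, and those of the 3 collagen genes -0.32, -0.41 and -0.49. The order rests on 6 arrays.

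**Figure D4:**
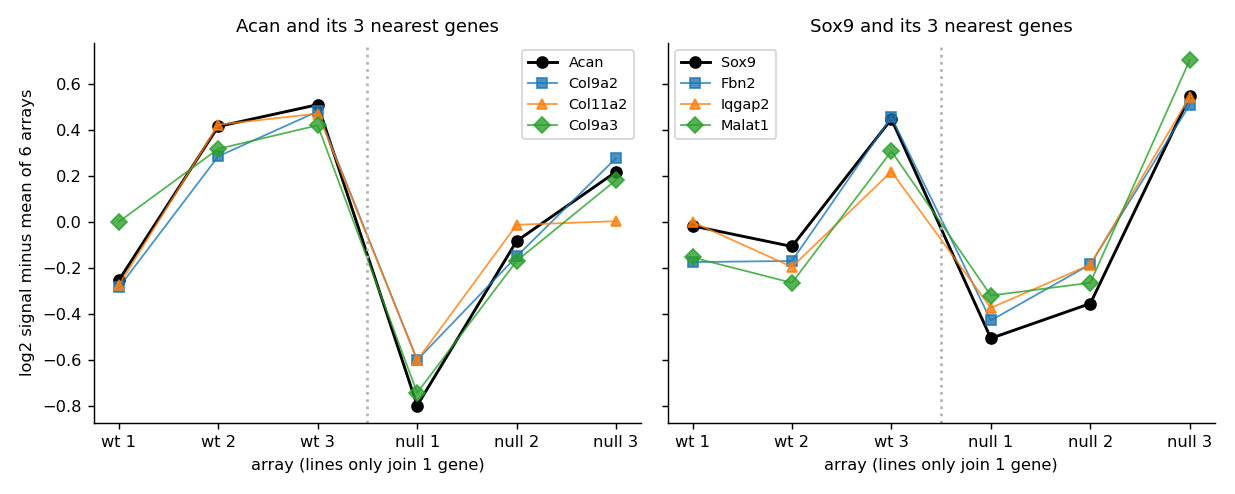
Log2 signal minus the mean of 6 arrays (y axis) on each array (x axis; wt, wild type; null, Igf1 null) for Acan, left, and Sox9, right, with the 3 genes nearest to each. Acan and the 3 collagen genes have null replicate 1 as their lowest array, and Sox9 and its neighbours have null replicate 3 as their highest.

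Other genes of cartilage did not all lie on the same side as the matrix genes. The 7 cartilage collagen genes were all lower, and 0 passed, with a median of -0.32, among them Col9a1 (-0.26 ± 0.13 SE), Col9a3 (-0.49 ± 0.27) and Col11a2 (-0.41 ± 0.29). Col10a1, the collagen of hypertrophic cartilage, read 6.79, 7.68 and 7.56 in wild type and 8.48, 7.98 and -0.92 in null pools. Its lower mean in the null pools rests on null replicate 3, without which the difference was 0.88, and the other two null pools lay above every wild type pool. Other matrix genes of cartilage, 8 in all, were split into 4 lower and 4 higher (median 0.01), and the 6 of them above the reference level into 4 lower and 2 higher (median -0.12). Examples are the WNT antagonist gene Frzb (-0.43 ± 0.26), the lubricin gene Prg4 (0.98 ± 0.62, mean level below the reference) and the chondroadherin gene Chad (-0.31 ± 0.32). Of 11 genes for the making of proteoglycan chains 7 lay lower and 4 higher (median -0.02). The 9 of them above the reference level split into 5 lower and 4 higher. The 11 include the sulfotransferase gene Chst11 (-0.67 ± 0.30, mean level below the reference) and Ugdh, which makes a sugar precursor (0.20 ± 0.12). Of 18 regulators of chondrocytes 9 lay lower and 9 higher (median 0.01), and the 13 above the reference level split into 6 lower and 7 higher. Among the 18 are Ihh, the signal of prehypertrophic chondrocytes (-0.59 ± 0.46), and Bmpr1b, a receptor gene for bone morphogenetic proteins (-0.51 ± 0.39, mean level below the reference). No gene of these 4 lists passed an adjusted p of 0.05.

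Relatives of the 10 genes gave no common direction. Of 10 measured relatives of the matrix genes 5 lay lower and 5 higher (median -0.03). The 9 of them above the reference level split into 5 lower and 4 higher (median -0.15). The lowest value of the 10 belonged to the thrombospondin gene Thbs1 (-0.69 ± 0.21 SE, adjusted p = 0.896), followed by Thbs2 (-0.35 ± 0.14). These 2 relatives of Comp were lower in every null pool than in every wild type pool, while Thbs3 and Thbs4 stood at 0.20 ± 0.15 and 0.11 ± 0.50. Of 14 other SOX genes 6 lay lower and 8 higher (median 0.02), and the 9 above the reference level split into 5 lower and 4 higher. The 14 include the endothelial genes Sox17 and Sox18 (-0.23 ± 0.13 for each) and Sox2, a gene of sensory progenitors (0.24 ± 0.15). Among 11 proteases and inhibitors that act on cartilage matrix 10 lay lower and 1 higher (median -0.24). The aggrecanase gene Adamts1 (-0.34 ± 0.12, adjusted p = 0.967) was lower in every null pool, and the membrane protease gene Mmp14 stood at -0.25 ± 0.16. No gene of these 3 lists passed.

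**Figure D5:**
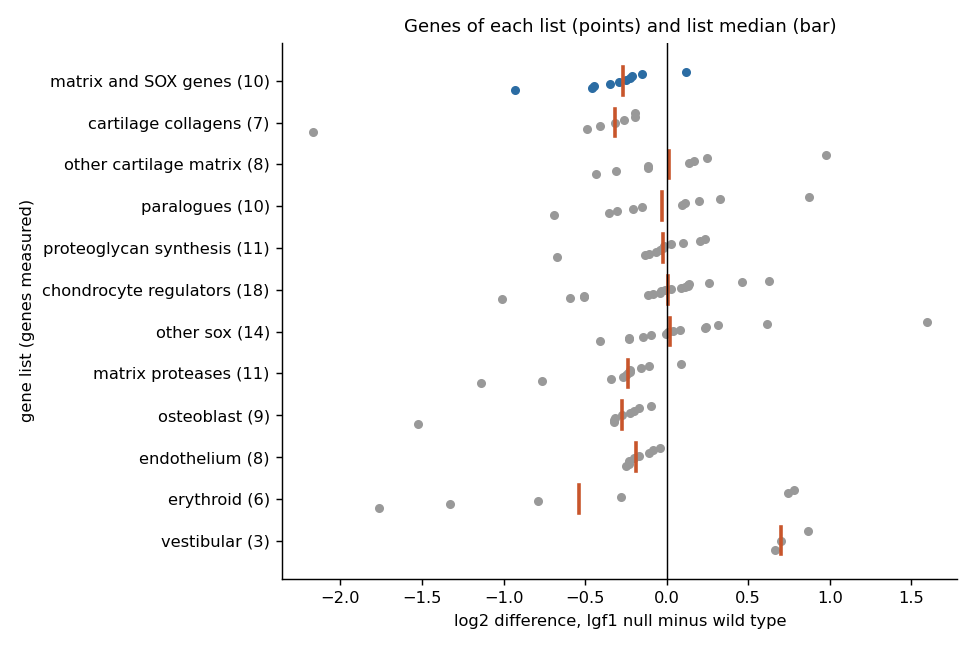
Log2 difference, Igf1 null minus wild type (x axis), of the measured genes of 12 lists (y axis, number measured in brackets; points, genes at their brightest probe set; bars, list medians). The medians are -0.27 for the 10 matrix and SOX genes and -0.32 for the cartilage collagens, and lie near 0 for other cartilage matrix genes and chondrocyte regulators. Lists of other kinds were lower too, with medians of -0.28 for osteoblast, -0.24 for matrix proteases, -0.19 for endothelium and -0.54 for erythroid genes, and vestibular genes were higher (0.70).

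Markers of other cell types also moved between pools, and their part in the values of the 10 genes was not tested. Summed linear signal of 8 skeletal muscle genes ran from 6919 to 22782 in wild type and from 7069 to 22897 in null pools, and that of 8 neuron genes from 3406 to 11614 and from 3620 to 6933. Of 9 osteoblast genes 9 were lower (median -0.28), with sums of 25391 to 29779 in wild type and 22628 to 25597 in null pools. Null replicate 1, lowest for the 10 genes, had the highest osteoblast sum of the null pools. Most of that sum is Col1a1, Col1a2 and Sparc. In null replicate 1 Col1a1 (12.97) and Col1a2 (12.96) were the highest of the null pools, and Sparc (12.69) was the lowest. Sums of 6 erythroid genes were 260 to 354 and 146 to 218, lower in every null pool, with 1 of the 6 above the reference level. The dissection left out vestibular tissue, and whether the genes of the vestibular list mark that tissue alone was not tested. Sums of the 3 measured genes of that list were 1020 to 1430 and 1717 to 3313, higher in every null pool. Nearly all of that sum is Oc90, with mean levels of 10.23 in wild type and 11.09 in null pools. Hmx3 stood at 4.30 and 4.96, near the reference level, and Hmx2 at 2.39 and 3.09, below it. Of 10 genes of cochlear epithelium 2 were lower and 8 higher (median 0.25), with sums of 1984 to 2748 and 2226 to 3246. Of 7 genes of the mesenchyme around the otic epithelium 4 were lower (median -0.03), with sums of 10178 to 12548 and 10290 to 12184. Of 6 Schwann cell genes 4 were lower (median -0.23), with sums of 3422 to 4876 and 3417 to 4451. The 4 Schwann cell genes above the reference level split into 2 lower and 2 higher (median -0.01). Of 8 endothelial genes 8 were lower (median -0.19), with sums of 1098 to 1232 and 956 to 1101. As a sign of RNA quality, the log2 ratio of the 3′ to the 5′ control probe set was read. For beta-actin it was 0.71 to 0.80 in wild type and 0.86 to 1.08 in null arrays, without overlap (exact permutation p = 0.1, the smallest possible). The ratios of Gapdh, transferrin receptor and pyruvate carboxylase overlapped. Their means in wild type and null arrays were 0.25 and 0.35 for Gapdh, 3.35 and 2.17 for transferrin receptor, and 3.33 and 3.34 for pyruvate carboxylase.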

How the data were processed

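Total RNA of 6 cochlear pools was labelled as biotin cRNA for Affymetrix arrays, per the labels' protocols. The table the authors deposited gives log2 signal for 22690 probe sets, where log2 is read from the span of the values. How probes were summarised and background was treated is not given in the sources used here. Because array medians differed, the arrays were quantile normalized, without the 64 control probe sets. Titles and descriptions set the genotype, while the source field of the null samples shows the wild type sign. Pools are called biological replicates in the titles.

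Null and wild type arrays were fitted in limma (version 3.58.1, under R 4.3.3; lmFit and eBayes with genotype as the sole term, two-sided, Benjamini-Hochberg over 22626 probe sets, threshold 0.05). The fit was run on simulated data with independent noise on each array, to check the sign and size of added differences. That check is no measure of power for these arrays. Probe sets were named by the platform annotation (20380 with a single gene), with symbols from RefSeq (GRCm38.p6), and a gene in a list was read at its brightest probe set. Single values used an exact permutation test over 20 splits. Of other lists, at most 3 genes by smallest p were named. Exceptions were Col2a1, Col10a1, Thbs3, Thbs4 and Col1a1, chosen after their values were seen. Col1a2 and Sparc are among the 3 osteoblast genes with the smallest p, but they too were chosen after their values were seen. For Acan and Sox9 the 3 nearest genes were named. The members and lists were chosen with earlier results of these data known. Alternatives were deposited values, median centring, blocks, a trended robust variance, array weights (statmod 1.5.0), an offset of 32, a filter at the 40th percentile and left-out arrays.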

Additional observations from a re-analysis of the deposited data

How the results depend on the processing

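In limma, 0 of the 17 probe sets of the 10 genes and 0 of all probe sets passed an adjusted p of 0.05 under each of 15 alternative fits. The filter at the 40th percentile leaves out the 3 dim ones, so there it was 0 of 14. With that filter 673 of 13575 probe sets had an unadjusted p under 0.05. In the other alternative fits 828 to 1613 did, and 1130 in the reported fit. The median of the 10 genes stayed negative under all 15 alternatives, from -0.44 (without null replicate 3) to -0.12 (without null replicate 1). It was -0.36 with the values as deposited, a scale on which the median probe set differed by -0.15, -0.18 with median centring and -0.32 when a gene's probe sets were averaged. With the replicate block it was again -0.27, and 0 probe sets passed. Same-numbered pools had correlations of their deviations of 0.04, 0.10 and 0.02 over all probe sets, where the limit for pairing of 0.1 is not met by every pair. Above the 40th percentile of level, where 14 of the 17 probe sets lie, these were 0.14, 0.29 and 0.12, all past that limit, and each pool correlated best with its own number. In all 3 same-numbered pairs the null pool was lower for 6 of the 10 genes (Acan, Matn3, Matn4, Comp, Hapln1 and Cnmd), where 13.95% of all genes were. With the replicate block the SE was 0.12 against 0.35 for Acan and 0.10 against 0.25 for Matn4, and their adjusted p-values were 0.822 and 0.847.

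Of the single probe sets, those of Matn1, Matn3, Matn4, Acan, Comp and Cnmd, both of Sox9, the brightest of Hapln1 and the dim probe set of Sox6 kept their sign under every alternative in which they were fitted. The dim Sox6 probe set is absent from the filtered fit and stood at -0.0083 without title number 14. Signs turned elsewhere, and the cause was not tested. With the values as deposited Hapln1 probe set 3 gave -0.11, Sox5 probe set 1 gave -0.016 and Sox5 probe set 4 gave -0.30, or -0.13 with median centring. With array weights Hapln1 probe set 3 gave -0.053 and Sox5 probe set 3 gave -0.25. With single arrays left out, Hapln1 probe set 2 ran from -0.13 to 0.047 and probe set 3 from -0.11 to 0.14. Sox5 ran from -0.15 to 0.30 at probe set 1, from -0.21 to 0.077 at probe set 2, from -0.058 to 1.11 at probe set 3 and from -0.74 to 0.72 at probe set 4. Sox6 probe set 1 ran from -0.38 to 0.11. Without title number 14 Sox5 probe set 2 gave 0.070 and probe set 3 gave -0.27, and Sox6 probe set 1 gave 0.098. With an offset of 32 the within-array ratio of Sox5 probe set 1 to 3 shifted by 0.068, against -0.26. Probe sets are numbered from the brightest. Signal near the reference level of 4.60 limits the 3 dim ones.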
